A study of Mus musculus with 12 samples.

Results

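Interferon-stimulated genes are the genes that cells switch on after sensing interferons, and 39 of them were followed in regulatory T cells (Tregs) of 4 mouse genotypes. They were taken from general knowledge of the interferon response as 28 targets of type I interferon and 11 targets of interferon gamma. Each gene is represented by the probe set that names it alone and has the highest mean over the 12 arrays. Such a probe set was found for 36 of the 39 genes, 26 type I and 10 interferon gamma targets, out of 13899 gene symbols tested. All 36 passed the filter on low values. Isg15 and Tgtp1 lie on probe sets that carry several symbols, and Ifi44 was matched to no probe set, so these 3 are named only. Genes of the MHC region were left out.

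RNA of freshly isolated, untreated natural Tregs, the T cells that restrain other immune cells, was measured on Affymetrix mouse arrays after purification by flow cytometry. The groups were wild type, Ebi3-/-, Il10-/- and Ebi3-/- Il10-/- (the double knockout), with 3 arrays each, and each of the 3 labelled batches holds 1 array of every genotype. The labels name no strain, age, sex, targeted allele or pooling, and they do not say that replicates came from separate animals, so the tests measure only the spread between these 12 samples. Ebi3 encodes a subunit shared by interleukin 35 and interleukin 27, and Il10 encodes interleukin 10, which are suppressive cytokines.

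The knockout of Ebi3 was visible on the arrays. The Ebi3 signal was 1159, 1728 and 1726 in wild type and 1062.5, 2057 and 1899.6 in Il10-/-, against 3.0, 29.4 and 39.5 in Ebi3-/- and 15.2, 72.5 and 23.6 in the double knockout. The Il10 probe set did not separate the genotypes (184.5, 2939.8 and 484 in wild type, 2038, 1976 and 1028 in Il10-/-). No allele is named, so whether that probe set lies in a deleted stretch is not known here, and the Il10 genotypes are given as labelled. Foxp3, the transcription factor that defines Tregs, had signals of 4945 to 7955 on all arrays.

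Type I interferons (the alpha and beta families) bind a receptor of Ifnar1 and Ifnar2, whose kinases activate STAT2. It joins IRF9 in a complex that binds the interferon-stimulated response element (ISRE) of antiviral genes. Interferon gamma binds Ifngr1 and Ifngr2, acts through gamma-activated sites (GAS) in promoters and induces IRF1, guanylate-binding proteins and immunity-related GTPases. Many genes respond to both interferons, so the class of a gene names its better known inducer and not an exclusive one.

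The promoters of 5 members are shown because they hold the response elements and stand for the different patterns across batches described further on. Each is the 250 bases before a RefSeq start on the gene's own strand in GRCm38.p6, 5′ to 3′. Capitals mark ISRE matches (GAAA, any 2 bases and GAAA again, on either strand) and GAS matches (TTCNNNGAA, the same on both strands). In Bst2 the marked run holds 2 overlapping ISRE matches and a GAS match that overlaps them.
Ifit3, chr19:34583279-34583528, plus strand: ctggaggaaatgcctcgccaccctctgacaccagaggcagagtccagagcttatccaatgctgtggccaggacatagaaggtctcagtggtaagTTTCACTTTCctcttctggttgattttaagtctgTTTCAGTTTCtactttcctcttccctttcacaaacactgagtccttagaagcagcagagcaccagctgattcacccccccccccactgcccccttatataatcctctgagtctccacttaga
Oas3, chr5:120777660-120777909, minus strand: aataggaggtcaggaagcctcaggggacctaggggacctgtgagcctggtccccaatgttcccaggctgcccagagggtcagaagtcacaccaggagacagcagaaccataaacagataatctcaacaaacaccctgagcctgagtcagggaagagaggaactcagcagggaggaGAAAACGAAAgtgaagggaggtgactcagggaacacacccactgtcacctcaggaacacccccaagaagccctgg
Bst2, chr8:71537473-71537722, minus strand: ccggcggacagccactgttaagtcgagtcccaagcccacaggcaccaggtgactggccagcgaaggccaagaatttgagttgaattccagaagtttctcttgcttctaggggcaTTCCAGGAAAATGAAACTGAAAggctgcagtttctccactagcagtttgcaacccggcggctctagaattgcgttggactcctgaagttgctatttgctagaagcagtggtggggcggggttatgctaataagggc
Gbp2, chr3:142620413-142620662, plus strand: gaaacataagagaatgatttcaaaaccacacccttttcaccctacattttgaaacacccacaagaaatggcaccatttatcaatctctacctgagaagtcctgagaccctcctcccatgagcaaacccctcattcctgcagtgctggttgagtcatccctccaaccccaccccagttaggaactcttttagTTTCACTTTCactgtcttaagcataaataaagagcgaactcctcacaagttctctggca
Cxcl10, chr5:92348890-92349139, minus strand: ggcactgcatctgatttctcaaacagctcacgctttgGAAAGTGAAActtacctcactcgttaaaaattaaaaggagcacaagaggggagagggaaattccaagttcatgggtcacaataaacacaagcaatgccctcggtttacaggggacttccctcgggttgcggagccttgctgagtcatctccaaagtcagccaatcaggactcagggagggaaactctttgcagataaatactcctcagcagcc

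The ISRE matches end 146 and 112 bases before the start of Ifit3, 65 before that of Oas3, 120 and 114 before that of Bst2, 49 before that of Gbp2 and 203 before that of Cxcl10. These distances are to the start used for each window. The annotated Ifit3 gene begins upstream of its window, at 34583119, and the annotated Oas3 gene reaches 120777684, inside its window. RefSeq promoters were matched for 27 of the 36 measured members. There is no entry for Usp18, Mx1, Mx2, Oas2, Dhx58, Zbp1, Parp14, Rtp4 and Iigp1. An ISRE match was present in 12 of the 27 (44.4%), against 2.98% of all 32851 promoter windows of that length and 3.46% of 27025 genes with any start. It was present in 7 of 18 type I and 5 of 9 interferon gamma targets. A GAS match was present in 7 of the 27 (25.9%), against 7.02% of windows and 8.13% of genes. A match of letters is a description and not a tested binding site.

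None of the 36 members passed the test in any comparison of genotypes. Batch was called for 26 of the 36, 22 of 26 type I and 4 of 10 interferon gamma targets, against 41.8% of all 31235 tested probe sets. The test was limma's moderated test, with p-values adjusted over all tested probe sets and a threshold of 0.05. Differences are on the scale log2(signal + 20), which understates the change of weak signals, and errors are standard errors (SE) unless named otherwise. In genotype comparisons the SE is from the fit without batch. Where the p-value beside it is from the fit with batch, that SE does not belong to it. Signals are linear MAS5 units and can be compared between arrays for 1 gene, but not between genes.

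**Figure D1:**
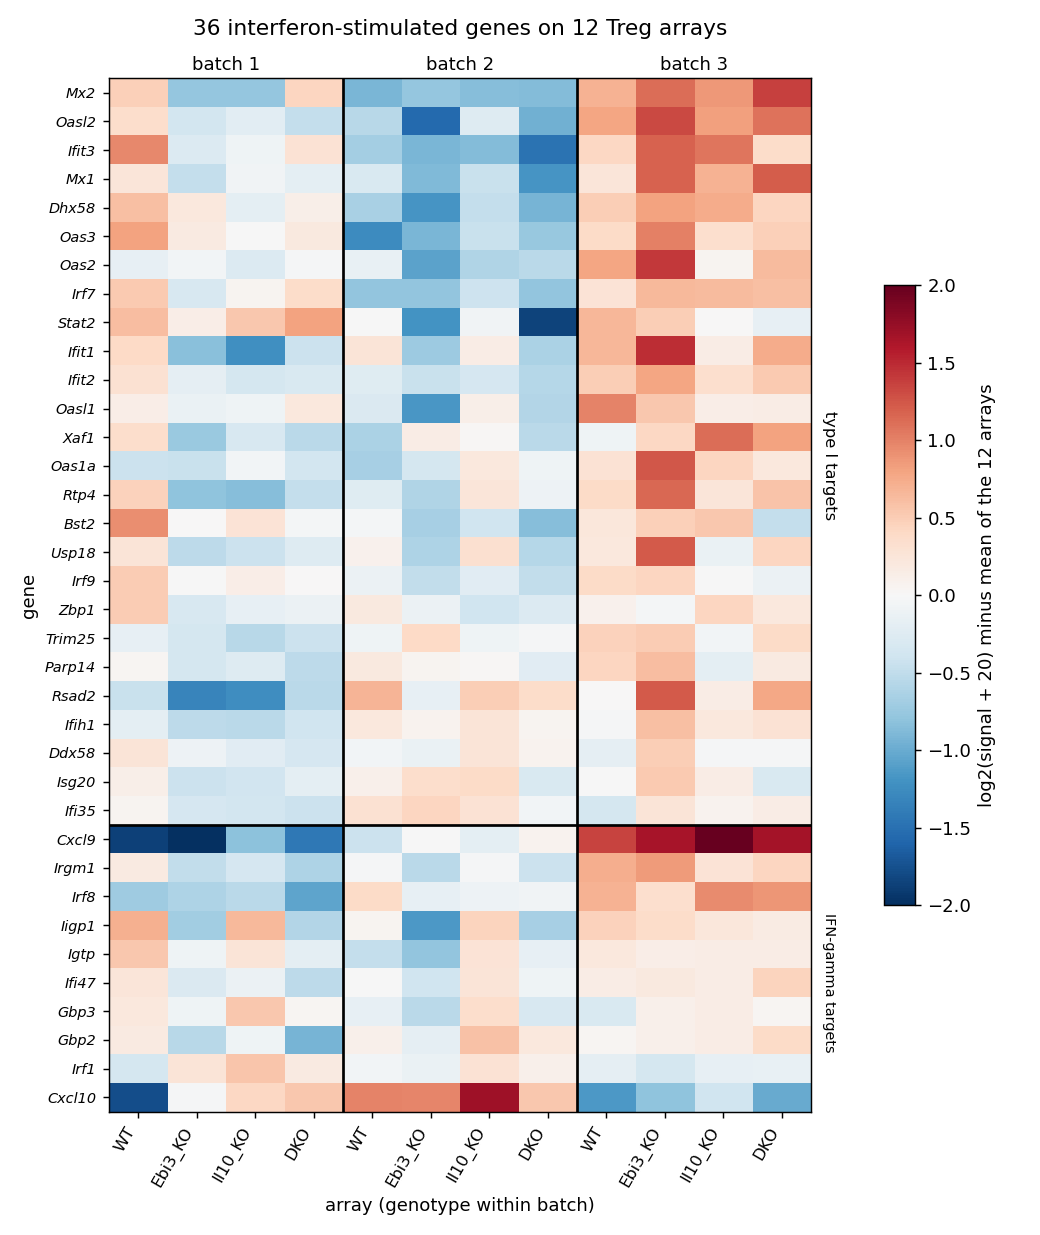
Level of each of the 36 measured members on each of the 12 arrays, as log2(signal + 20) minus the gene's mean over the 12 arrays, with type I targets above the line and interferon gamma targets under it and arrays ordered by batch. Most type I targets are above their mean on the 4 arrays of batch 3 and on the wild-type array of batch 1, and below it on the arrays of batch 2.

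The array means of the lists show which arrays stand high and low. Averaged over the 26 type I targets, the level relative to each gene's 12-array mean was 0.29, -0.22 and 0.34 (log2) on the wild-type arrays of batches 1, 2 and 3. It was -0.35, -0.51 and 0.81 in Ebi3-/-, -0.29, -0.12 and 0.34 in Il10-/-, and -0.14, -0.55 and 0.40 in the double knockout. All 4 arrays of batch 3 thus lay above all arrays of the other batches, with the Ebi3-/- array of batch 3 highest.

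The 10 interferon gamma targets did not follow the same order. Their mean was -0.26, 0.04 and 0.20 on the wild-type arrays, -0.48, -0.29 and 0.26 in Ebi3-/-, 0.05, 0.36 and 0.37 in Il10-/-, and -0.46, -0.08 and 0.30 in the double knockout. The Il10-/- array had the highest interferon gamma mean of the 4 genotypes in each batch. The type I mean minus the interferon gamma mean was -0.35, -0.48 and -0.04 in Il10-/-, the lowest value of each batch, against 0.55, -0.25 and 0.14 in wild type, 0.13, -0.22 and 0.55 in Ebi3-/- and 0.32, -0.46 and 0.10 in the double knockout. These list means are descriptions and carry no test.

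Single arrays led many genes at once. The wild-type array was the highest of batch 1 for 22 of the 26 type I targets, and the Ebi3-/- array was the highest of batch 3 for 19 of them. Over all 31235 tested probe sets, these arrays were the highest of their batches for 10390 and 6954. In batch 2 the wild-type and Il10-/- arrays were each highest for 11 type I targets, against 7129 and 8017 of all tested probe sets. For the interferon gamma targets in batch 2, the Il10-/- array was highest for 8 of 10 and the Ebi3-/- array lowest for 8 of 10. Of all tested probe sets, the Ebi3-/- array of batch 2 was lowest for 10012.

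**Figure D2:**
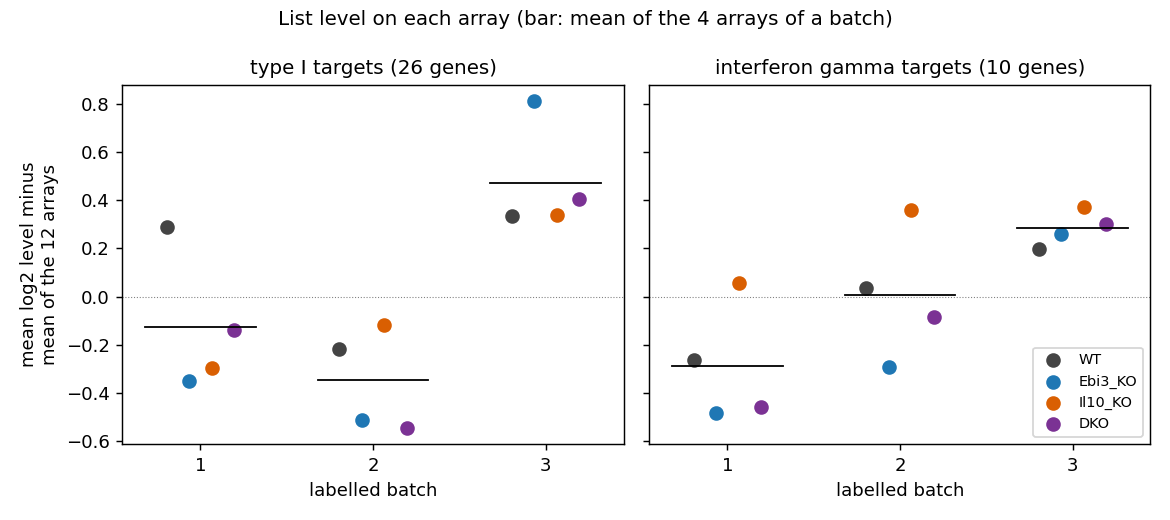
Mean over the 26 type I targets and over the 10 interferon gamma targets on each array, in log2 relative to each gene's 12-array mean, with points for the 4 genotypes in each batch and a bar for the batch mean. The type I mean is highest in batch 3, where the Ebi3-/- array reaches 0.81.

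Differences between batches were tested with genotype in the model. The 4 arrays of batch 3 differed from those of batch 2 upward for 19 members, against 11% of all tested probe sets called higher, and downward for 1, against 9.98% called lower. Of the type I targets 16 of 26 rose and none fell, with a median of 0.79 (log2) over the 26, while the median over all tested probe sets was -0.01. The 16 include Mx2, which passed the filter on low values only through batch 3. Of the interferon gamma targets 3 of 10 rose (Cxcl9, Irf8 and Irgm1) and 1 fell (Cxcl10), with a median of 0.37. Batches not overlapping in the upward direction were seen for 11 of 26 type I targets, against 12.4% of all tested probe sets. Without the Ebi3-/- array of batch 3 the rise was called for 12 members, 9 of them type I.

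Against batch 1, batch 3 was higher for 16 members, against 10.2% of tested probe sets, and lower for 1 (Irf1), against 18.5%. The 16 were 13 type I and 3 interferon gamma targets. Without the Ebi3-/- array of batch 3 this count was 10, with 7 type I targets. Batch 2 was higher than batch 1 for 7 members (9.32% of tested probe sets) and lower for 7 (18.8%). The 7 that fell, a share of the members near that of all tested probe sets, were Stat2, Irf7, Irf9, Ifit3, Oas3, Dhx58 and Bst2. They are type I targets, the class of 26 of the 36 members. The type I medians were 0.60 for batch 3 against batch 1 and -0.20 for batch 2 against batch 1, where all tested probe sets had medians of -0.16 and -0.18. After quantile normalization the type I median for batch 2 against batch 1 was -0.0047. The pairs of batches share arrays, so their values stand side by side and were not set against each other.

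Among the transcription factors, 4 of 5 rose from batch 2 to batch 3, against 11% of all tested probe sets called higher. The Irf7 signal, of the factor that amplifies type I interferon production, was 1922, 1058, 1377 and 1722 in batch 1 (wild type, Ebi3-/-, Il10-/- and double knockout, an order kept for all genes), 764, 765, 998 and 764 in batch 2, and 1603, 2089.7, 2073 and 2019.8 in batch 3. All arrays of batch 2 were below all others, and batches 1 and 3 overlapped. Irf7 was 1.22 ± 0.18 higher in batch 3 than in batch 2 (limma, adjusted p = 0.000462).

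Irf9, the DNA-binding subunit of the type I complex, read 2949, 2076, 2288 and 2089 in batch 1, 1910.0, 1473, 1763 and 1472.5 in batch 2, and 2709, 2807, 2076 and 1909 in batch 3. Its partner Stat2 read 283, 196, 267 and 325 in batch 1, 177, 66.3, 167 and 34.3 in batch 2, and 293, 257, 179 and 155 in batch 3. For both genes batch 2 lay below batch 1 without overlap and overlapped batch 3. From batch 2 to batch 3, Irf9 rose by 0.51 ± 0.13 (limma, adjusted p = 0.0158) and Stat2 by 1.03 ± 0.32 (limma, adjusted p = 0.0332).

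The interferon gamma regulators Irf8 and Irf1 differed in direction. Irf8, which directs myeloid and dendritic cell genes as well as interferon responses, read 1670.0, 1798, 1898 and 1315 in batch 1, 3583, 2452, 2578 and 2631 in batch 2, and 4496, 3478.5, 5325 and 5079 in batch 3. Batch 1 lay below the other batches, which overlapped, and the rise from batch 1 to batch 3 was 1.44 ± 0.16 (limma, adjusted p = 3.28e-05). Irf1, a classical early target of interferon gamma, read 6877, 10404.5, 12859.9 and 9933 in batch 1, 8376, 7946, 10680.1 and 9359.5 in batch 2, and 7672, 6867, 7825 and 7857 in batch 3. Its 4 values in batch 3 were below all 4 of batch 2, a difference of -0.26 ± 0.13 that did not pass (limma, adjusted p = 0.185). It fell by 0.37 from batch 1 to batch 3 (limma, adjusted p = 0.0465), while the test over all batches had an adjusted p of 0.0766.

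The antiviral effectors, which block viral entry, translation or replication, held most of the rise. Of these, 11 of 14 were called higher in batch 3 than in batch 2, against 11% of all tested probe sets. Ifit3, which binds partner IFIT proteins that recognise viral RNA, read 985, 406, 469 and 614 in batch 1, 303, 253, 264 and 165 in batch 2, and 669.9, 1149, 1071 and 649.6 in batch 3. Batch 2 was below both others with no overlap, and the difference from batch 3 was 1.75 ± 0.27 (limma, adjusted p = 0.000573). This probe set may also report a near-identical neighbouring copy. Ifit1, a sensor of viral RNA caps, read 1448, 609, 457 and 805, then 1321, 657, 1217 and 704, then 1759.8, 3091, 1214 and 1856 in batches 1, 2 and 3, and its batches overlapped.

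The Mx proteins are GTPases that trap viral particles. Mx1 read 367, 216, 292 and 266 in batch 1, 246, 158, 221 and 125 in batch 2, and 366, 721.5, 509 and 739 in batch 3, so batches 2 and 3 did not overlap. Mx2 read 63.2, 14.9, 14.9 and 60.7 in batch 1, 11.8, 14.8, 12.9 and 12.5 in batch 2, and 76.1, 109, 89.0 and 134 in batch 3. It reached the 40th percentile of the array on 6 of 12 arrays, the 4 of batch 3 and the wild-type and double-knockout arrays of batch 1. Mx2 thus passed the filter of 3 arrays only through batch 3, where it is high. Its rise is therefore no independent support, although the counts of members higher in batch 3 include it. Its 4 arrays of batch 3 were above the other 8.

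The 2′-5′ oligoadenylate synthetases, which activate the RNA-degrading enzyme RNase L, and the related Oasl genes also rose. Oas2 read 319.6, 347, 296 and 355.5 in batch 1, 322, 160.5, 232 and 242 in batch 2, and 637, 999.9, 374 and 569 in batch 3. Oasl2 read 389, 227, 257 and 211, then 198, 89.2, 248 and 145, then 533.5, 781, 548 and 663. In both, all 4 arrays of batch 3 were above the other 8, and the step from batch 2 to batch 3 was 1.31 ± 0.25 for Oas2 (limma, adjusted p = 0.0024) and 1.84 ± 0.26 for Oasl2 (limma, adjusted p = 0.000361). Oas3, whose ISRE match is shown above, rose by 1.40, Oasl1 by 0.93 and Oas1a by 0.77.

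Bst2 (tetherin), which holds budding virus at the cell surface, read 856.5, 439.9, 533 and 426 in batch 1, 427, 268, 329 and 233 in batch 2, and 519, 616, 645.5 and 310.4 in batch 3. Batch 3 was 0.68 ± 0.20 above batch 2 (limma, adjusted p = 0.0242), although the batches overlapped through the double knockout of batch 3. Rsad2 (viperin), which makes a chain-terminating nucleotide, followed another order, with 786, 421, 444.5 and 734.5 in batch 1, 962 to 1743 in batch 2 and 1090.3 to 2562 in batch 3. Rsad2 was higher than in batch 1 by 1.23 in batch 2 and by 1.43 in batch 3, and both differences passed.

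**Figure D3:**
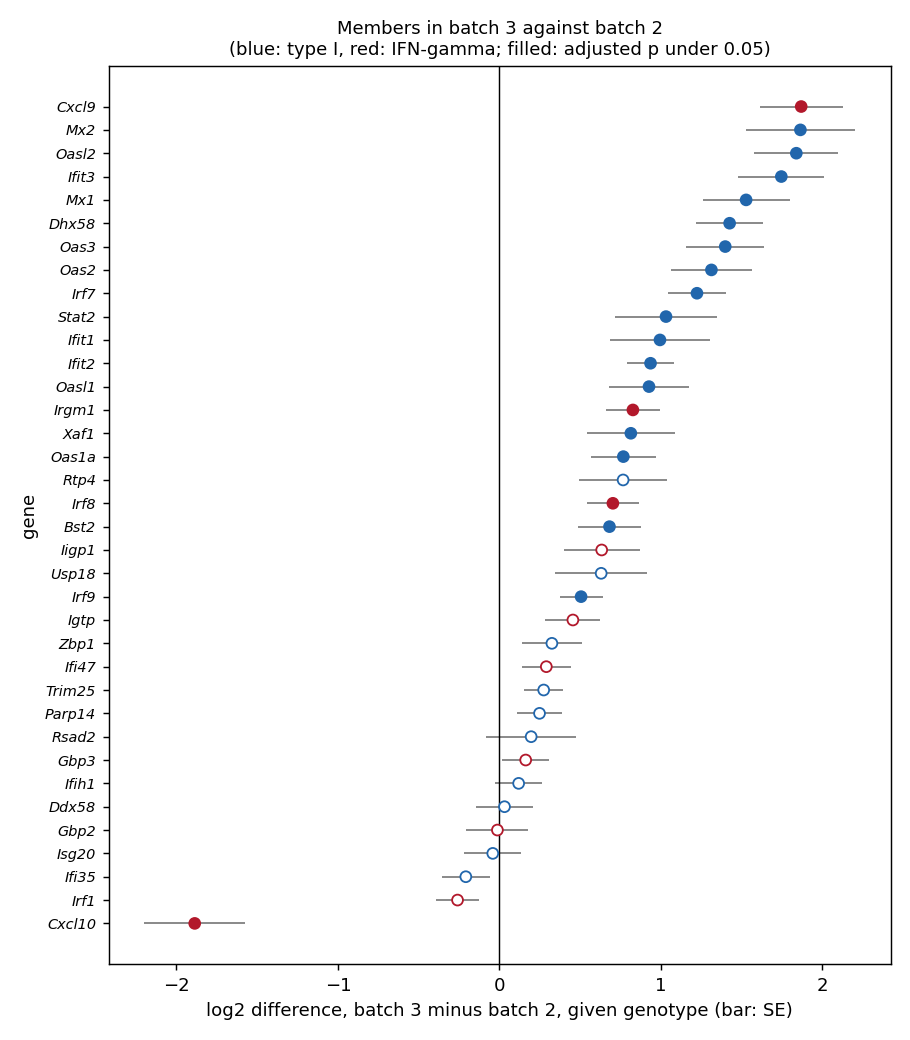
Difference of batch 3 from batch 2 for each of the 36 members, in log2(signal + 20) with its standard error from the fit with genotype as a term; filled points have an adjusted p under 0.05. The 16 called type I targets all lie above 0, and Cxcl10 is the single member called below 0, at -1.89.

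Of the 4 sensors of foreign RNA and DNA, 1 rose from batch 2 to batch 3, against 11% of all tested probe sets. This gene was Dhx58 (the LGP2 helicase). It read 545, 413, 306 and 385 in batch 1, 219, 146, 249.7 and 176.5 in batch 2, and 508, 634, 607 and 486 in batch 3, a rise of 1.43 ± 0.21 (limma, adjusted p = 0.000418). Ifih1 (MDA5) was called higher in both later batches than in batch 1, by 0.56 and 0.68. Ddx58 (RIG-I) and Zbp1 were not called for batch.

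Usp18 and Trim25 belong to the ubiquitin-like ISG15 system, as the enzyme that removes ISG15 and a ligase that acts on RIG-I. Neither was called between batches 3 and 2. Trim25 read 5662, 4949, 4292 and 4692 in batch 1, 6002, 8387, 5954 and 6256 in batch 2, and 8745.5, 9066, 6105 and 8308 in batch 3, and all arrays of batch 1 were below the others. Its rise from batch 1 to batch 3 was 0.71 ± 0.12 (limma, adjusted p = 0.000685). The probe sets of Trim25 and Ifi35 are of a design that can match other transcripts.

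Parp14, an ADP-ribosyltransferase, read 3649, 2769, 2941 and 2452 in batch 1, 4044, 3669, 3609 and 3016 in batch 2, and 4770.5, 5441, 3101 and 4011 in batch 3. Ifi35 read 12909, 9832, 9667 and 9225.5, then 15323.5, 16704, 15144 and 11986, then 9748, 14956, 13003 and 13768. The batches overlapped for both genes, and Parp14 was called higher in batch 3 than in batch 1 by 0.53 and Ifi35 higher in batch 2 than in batch 1 by 0.51. Xaf1, a pro-apoptotic interferon target, rose by 0.81 from batch 2 to batch 3.

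The large and immunity-related GTPases, which attack the vacuoles of intracellular pathogens, were called for batch in 1 of 6 cases, against the 41.8% of all probe sets, and their median difference between batches 3 and 2 was 0.37. Irgm1 read 1784, 1113, 1248 and 1020.5 in batch 1, 1540.2, 1072, 1549 and 1159.7 in batch 2, and 2601, 2856, 1908 and 2128 in batch 3, with all arrays of batch 3 above the rest. Igtp read 16297, 10548, 13371 and 9744.5, then 8025, 6440.5, 13471 and 9973.5, then 12956, 12318.5, 12412 and 12420.4. Ifi47 read 12660.4, 8768, 9839 and 7436, then 10624, 8145.5, 12774 and 10037.5, then 11813, 12250.3, 11803 and 14566. The batches of Igtp and of Ifi47 overlapped.

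Gbp2, a guanylate-binding protein whose promoter above holds an ISRE match 49 bases before the start, read 5779.6, 3469, 4831 and 2674 in batch 1, 5459, 4516, 7684 and 5899 in batch 2, and 5231, 5474, 5649.7 and 6682.5 in batch 3. It differed by -0.01 ± 0.19 between batches 3 and 2, and its probe set can match related transcripts. Of the 12 members with an ISRE match, 9 were called for batch (75.0%), and of the 15 without one 11 were (73.3%). Of all tested probe sets, 41.8% were called for batch.

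The chemokines Cxcl9 and Cxcl10, which draw T cells through the receptor CXCR3, went opposite ways from batch 2 to batch 3. Cxcl9 read 13.4, 5.8, 49.3 and 25.5 in batch 1, 71.3, 101, 87.4 and 108 in batch 2, and 292, 363, 563 and 369.8 in batch 3, so the 3 batches did not overlap. It rose by 1.87 ± 0.26 between batches 2 and 3 (limma, adjusted p = 0.000292), and it reached the 40th percentile of the array on 8 of 12 arrays. Cxcl10 read 225, 801, 1102 and 1196 in batch 1, 1642, 1623, 2701 and 1199 in batch 2, and 359, 459, 619 and 398 in batch 3. All its values in batch 2 were above the others, and it fell by 1.89 ± 0.31 from batch 2 to batch 3 (limma, adjusted p = 0.001).

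Markers of other cell types moved with batch 3, to a degree that differed between lists. The counts called higher than in batch 2 stand against 11% of all tested probe sets. The summed signal of 6 monocyte and macrophage markers was 2713 to 3670.0 in batch 1, 2136 to 4220.0 in batch 2 and 21234 to 38669 in batch 3, and all 5 that were tested were higher in batch 3 than in batch 2, with Lyz2 up by 3.77 and Csf1r by 2.69. The neutrophil sums were 1082 to 4297, 1164 to 3433 and 4736 to 14981 (5 of 5 higher). Those of CD8 T and natural killer cells were 2068 to 2552, 1806 to 2684 and 4456 to 8776 (5 of 7 higher).

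B cell markers summed to 2137 to 3987, 810.5 to 1869 and 2295 to 7428 (3 of 5 higher, against the 11% of all tested probe sets). Those of plasmacytoid dendritic cells summed to 1139 to 1456, 889 to 1629 and 1577 to 3062 (2 of 5 higher, with Siglech at -0.23 not called). Those of conventional dendritic cells summed to 384 to 525, 503 to 574 and 980.2 to 1953 (1 of 5 higher, Itgax). The Treg markers summed to 61652 to 62663, 59849 to 66673 and 42925 to 51701, with Ctla4 and Ikzf2 lower and Tnfrsf18 higher in batch 3 than in batch 2. Foxp3, Il2ra, Cd4, Cd3e and Cd3g were not called between these batches. Strong signals weigh most in such a sum, as with Ctla4, whose mean was 22507 in batch 2 and 10481 in batch 3. Against batch 1, 5 of 8 Treg markers were called lower in batch 3, against 18.5% of all tested probe sets. Within batch 3 the Ebi3-/- array, the highest for the type I list, had the lowest sum of the 4 arrays for 5 of these 6 other cell lists, and its monocyte and macrophage sum of 21517 stood beside 21234 in wild type, 38669 in Il10-/- and 35741 in the double knockout. The part of these cell types in the rise of the interferon targets was not tested. In bulk RNA, a different number of cells of a type and a different amount of RNA per cell cannot be told apart.

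The comparison of Ebi3-/- with wild type asks whether loss of the cytokine subunit alters the interferon targets. In limma none of the 36 members passed, with 0.0032% of all probe sets called with or without batch in the model, and 1 of 36 had an unadjusted p under 0.05 in either fit, against 1.41% of probe sets without and 5.31% with batch. The difference was below 0 for 25 of 36 members, against 54.3% of tested probe sets, with medians of -0.16 over type I and -0.28 over interferon gamma targets and -0.03 over all tested probe sets. Within batches the type I median was -0.58 in batch 1, -0.28 in batch 2 and 0.53 in batch 3. Batch 3 thus ran opposite to the other batches. The type I median was 0.07 without the Ebi3-/- array of batch 1, 0.02 without that of batch 2 and -0.59 without that of batch 3, and it was 0.08 without the wild-type array of batch 1 and with batch as a term. Zbp1 was the single member whose groups did not overlap (2.21% of probe sets in that direction), at 512 to 694 in wild type and 379.7 to 468 in Ebi3-/-. Its difference was -0.43 ± 0.27, and the other Zbp1 probe set gave -0.11.

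Iigp1, an immunity-related GTPase, had the largest difference by Ebi3 genotype among the members. It read 2653, 1682.5 and 2239.9 in wild type and 2560.2, 2212 and 1891 in Il10-/- in batches 1, 2 and 3. It read 993, 721 and 2098.5 in Ebi3-/- and 1065.5, 1013.5 and 1824 in the double knockout. In batches 1 and 2 both genotypes without Ebi3 were below both genotypes with it, and in batch 3 all 4 arrays were between 1824 and 2239.9.

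Averaged over both Il10 backgrounds, the Iigp1 difference by Ebi3 genotype was -0.85 ± 0.26, with -1.32, -1.16 and -0.07 in batches 1, 2 and 3. It did not pass the test, and in the limma fit with batch as a term the adjusted p was 0.367. The other Iigp1 probe set gave -1.11 (limma with batch, adjusted p = 0.137). In the comparison of the double knockout with Il10-/- the Iigp1 groups did not overlap.

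That average difference by Ebi3 genotype was called for 0 of 36 members (limma; 0.0032% of probe sets, and 0.0064% with batch as a term), with 1 member at an unadjusted p under 0.05 (1.38% of probe sets) and 5 with batch as a term (4.54%). It was below 0 for 27 of 36 members and for 9 of 10 interferon gamma targets, against 51.9% of probe sets. The interferon gamma medians within batches were -0.47, -0.37 and -0.05, and those of the type I targets -0.23, -0.27 and 0.31. Among the GTPases the values were -0.32 ± 0.19 for Igtp, -0.32 ± 0.22 for Gbp2 and -0.22 ± 0.17 for Ifi47. Among the type I targets Stat2 had -0.59 ± 0.42 and Bst2 -0.52 ± 0.27, while Trim25, Mx2 and Oas2 had 0.16 ± 0.20, 0.16 ± 0.51 and 0.12 ± 0.38. The other Stat2 probe set gave -0.14, the other Gbp2 probe set -0.59 and the other Trim25 probe sets 0.23 and 0.16.

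**Figure D4:**
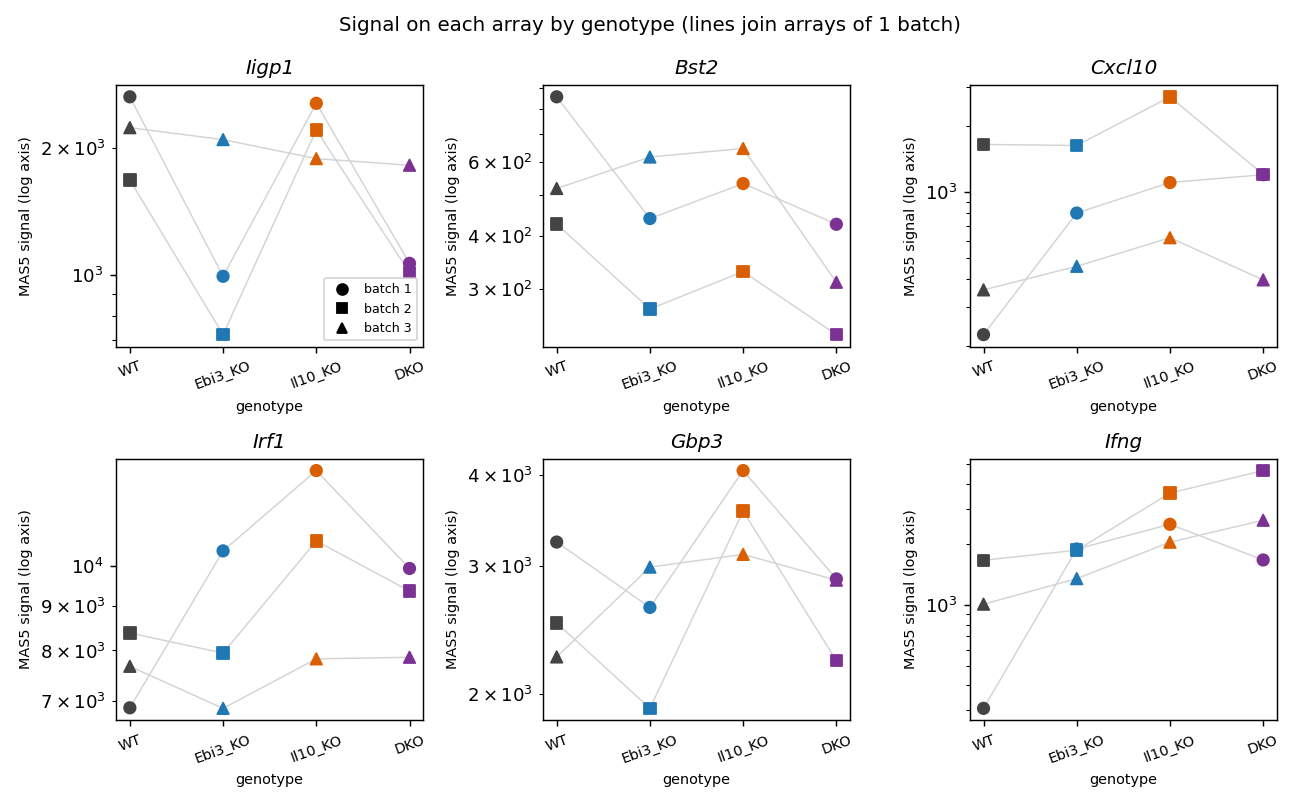
Signals of Iigp1, Bst2, Cxcl10, Irf1, Gbp3 and Ifng by genotype on a log axis, 1 point per array, with lines joining the arrays of a batch. Iigp1 is low in both Ebi3-deficient genotypes of batches 1 and 2 and level in batch 3, and Gbp3 is higher in Il10-/- than in wild type in each batch.

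In Il10-/- against wild type the lists lay on opposite sides of 0. The type I median was -0.23, with 23 of 26 below 0 against 50.1% of probe sets, and the interferon gamma median was 0.12, with 7 of 10 above 0 against 49.9%, while the median of all tested probe sets was -0.000643. None of the 36 passed in limma (0.0064% of probe sets, and 0.0384% with batch as a term), with 0 members at an unadjusted p under 0.05 (1.98% of probe sets) and 6 with batch as a term (7.68%). Within batches the type I medians were -0.53, 0.02 and 0.14, and the interferon gamma medians 0.07, 0.37 and 0.07. The type I median was thus negative in batch 1 alone, where the wild-type array was the highest for most type I targets. Without that array and with batch as a term it was 0.04, and the interferon gamma median was 0.28.

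The groups did not overlap for 2 members, both lower in Il10-/-, against 2.74% of probe sets. Parp14 read 3649, 4044 and 4770.5 in wild type against 2941, 3609 and 3101 in Il10-/-, and Ifit1 read 1448, 1321 and 1759.8 against 457, 1217 and 1214. Groups that do not overlap have the same sign in every batch, so the sign within batches adds nothing for these genes.

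Cxcl10 had the largest difference between Il10-/- and wild type, at 1.22 ± 0.74 (SE without batch). It was 2.20, 0.71 and 0.75 in the 3 batches (limma with batch, adjusted p = 0.457). Without the wild-type array of batch 1, whose signal of 225 was the lowest of the 12, it was 0.66. Gbp3 read 3232, 2504 and 2249 in wild type, 2629, 1912 and 2986 in Ebi3-/-, 4050.0, 3563 and 3109 in Il10-/-, and 2877, 2223 and 2865 in the double knockout. Its difference between Il10-/- and wild type was 0.43 ± 0.22, positive in each batch, though 1 wild-type array was above the lowest Il10-/- array. Irf1 also had 0.43 ± 0.21, with 0.90, 0.35 and 0.03 within batches.

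Averaged over both Ebi3 backgrounds, the difference by Il10 genotype was above 0 for 9 of 10 interferon gamma targets (53.7% of probe sets) and below 0 for 19 of 26 type I targets (46.3%). None of the 36 passed in limma (0.0128% of probe sets, and 0.064% with batch as a term), with 0 members at an unadjusted p under 0.05 (2.22% of probe sets) and 6 with batch as a term (8.62%). The values were 0.60 ± 0.52 for Cxcl10, 0.52 ± 0.80 for Cxcl9, 0.27 ± 0.15 for Irf1 and 0.26 ± 0.16 for Gbp3, each positive in all 3 batches. The Cxcl9 value ranged from 0.0089 without the Ebi3-/- array of batch 1 to 0.98 without that of batch 3, and the other Cxcl9 probe set had the opposite sign, at -0.24. Parp14 had -0.33 ± 0.18, Trim25 -0.26 ± 0.20 and Irf9 -0.23 ± 0.19, each negative in all 3 batches. The other Parp14 probe set gave -0.02, and the other Trim25 probe sets gave -0.34 and -0.17.

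**Figure D5:**
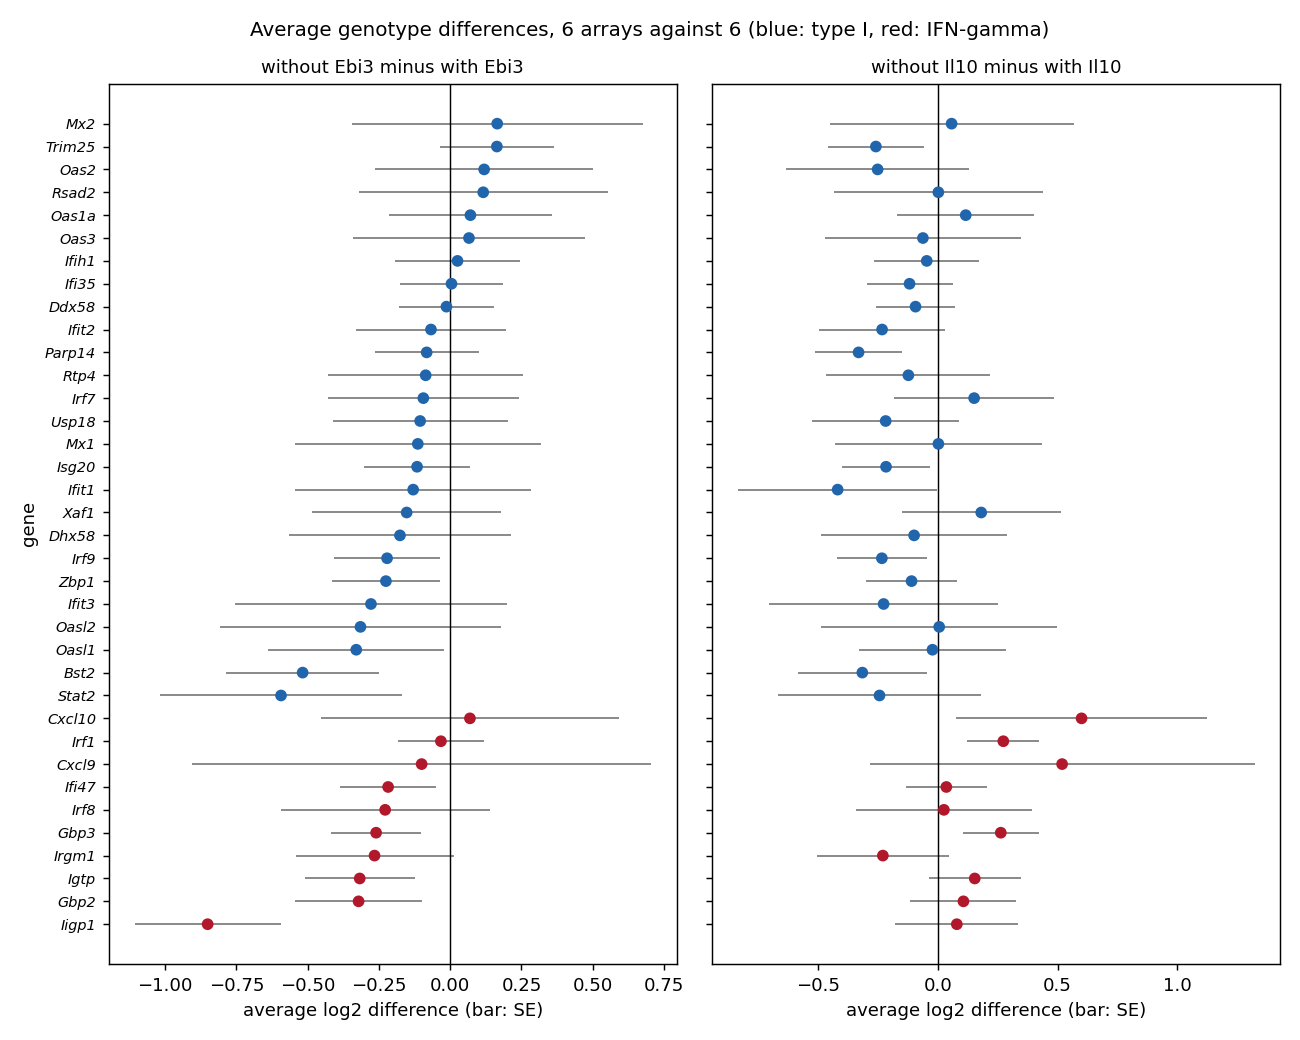
Average difference by Ebi3 genotype and by Il10 genotype for each of the 36 members, in log2(signal + 20) with its standard error from the fit without a batch term. None passed the test; Iigp1 lies lowest by Ebi3 genotype at -0.85, and Cxcl10 highest by Il10 genotype at 0.60.

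In the double knockout against wild type 26 of 36 members were below 0, against 48.8% of probe sets, with medians of -0.24 for type I and -0.17 for interferon gamma targets. None passed in limma (0.0096% of probe sets, and 0.0416% with batch as a term), with 1 member at an unadjusted p under 0.05 (2.14% of probe sets) and 6 with batch as a term (8.25%). The type I medians were -0.49, -0.34 and 0.09 in the 3 batches, and the interferon gamma medians -0.54, -0.13 and 0.16. Without the double-knockout array of batch 1 the interferon gamma median was 0.11. Without the wild-type array of batch 1 and with batch as a term, the medians were -0.09 for type I and 0.04 for interferon gamma targets. Bst2 had -0.83 ± 0.38 (SE without batch), with -0.97, -0.82 and -0.71 within batches (limma with batch, adjusted p = 0.367). Without the wild-type array of batch 1 it had -0.55. Bst2 and Isg20, a nuclease that degrades RNA, were the 2 members whose groups did not overlap, against 2.97% of probe sets in that direction. For Bst2 the groups all but touched, with a lowest wild-type signal of 426.7 and a highest double-knockout signal of 426.4.

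The double knockout against Il10-/- adds loss of Ebi3 on a background without Il10. All 10 interferon gamma targets were below 0, with a median of -0.30, against 48.7% of probe sets. Within batches that median was -0.47, -0.40 and -0.03. None of the 36 passed in limma (0.0032% with or without batch as a term), with 1 member at an unadjusted p under 0.05 (1.24% of probe sets) and 3 with batch as a term (3.49%). Iigp1, at -0.80 ± 0.36, and Gbp3, at -0.43 ± 0.22, were the 2 members whose groups did not overlap, against 2.13% of probe sets in that direction.

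The double knockout against Ebi3-/- had medians of -0.10 for type I and 0.10 for interferon gamma targets. None of the 36 passed in limma (0.0064% of probe sets, and 0.0192% with batch as a term), and 0 members had an unadjusted p under 0.05 in either fit, against 1.39% and 4.95% of probe sets. The interaction, which asks whether the loss of both genes differs from the sum of the single losses, had medians of 0.08 and 0.01. It was called for none of the 36 in limma (0% of probe sets in either fit), with 0 members at an unadjusted p under 0.05 (1.28% of probe sets) and 1 with batch as a term (3.94%). The comparisons of knockouts with wild type share the same 3 wild-type arrays, and a difference that misses the threshold here does not show that the genotypes are alike.

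Of the genes upstream of these targets, which comprise interferons, receptors, kinases, interferon regulatory factors and inhibitors, 21 were tested and none passed for genotype in limma in any of the 8 contrasts, with or without batch as a term. Unadjusted p-values under 0.05 were found for 0 to 2 of the 21 without batch. With batch as a term they were found for 6 of 21 in the double knockout against wild type (8.25% of probe sets), for 5 of 21 in Il10-/- against wild type (7.68%) and for 1 to 4 in the other contrasts (3.49% to 8.62%). The receptor chains Ifnar1 and Ifnar2 had signals of 1137 to 1989.9 and 1062 to 2246, and Ifnb1, encoding interferon beta, had 17.4 to 65.3. The interferon gamma receptor chains Ifngr1 and Ifngr2 had 2023 to 4265 and 161 to 344, the kinases Jak1, Jak2 and Tyk2 5159.6 to 11225, 3286 to 5463 and 1093 to 2044.5, and the inhibitor Socs1 87.5 to 324. Ifna2 and Ifna4 did not pass the filter.

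Ifng, encoding interferon gamma itself, read 307, 1667 and 1009 in wild type, 1896, 1869.5 and 1351 in Ebi3-/-, 2513, 3589 and 2048 in Il10-/-, and 1672, 4640.4 and 2631 in the double knockout. The wild-type array was the lowest of every batch. All Il10-/- arrays were above all wild-type arrays, as was the case for 3.14% of all tested probe sets. The double-knockout arrays were also above all wild-type arrays (3.2% of probe sets), narrowly, with a lowest signal of 1672.1 against 1666.6. The difference between Il10-/- and wild type was 1.69 ± 0.52 (limma with batch, adjusted p = 0.224), and it was 1.02 without the wild-type array of batch 1. The average difference by Il10 genotype was 1.19 ± 0.37 (limma with batch, adjusted p = 0.181). Socs3, an inhibitor of cytokine signalling that interleukin 10 can induce, had 0.55 ± 0.30 in the same contrast (limma with batch, adjusted p = 0.0729). The errors given for Ifng and Socs3 are from the fit without batch and do not belong to these p-values. Neither gene passed the test.

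Between batches, 14 of the 21 upstream genes were called, against the 41.8% of all probe sets. From batch 2 to batch 3 the factors Irf3 and Irf5 and the phosphatase Ptpn6 rose, by 0.46, 1.05 and 0.57. Ifngr2, Irf4, Socs3, Ptpn2 and Cish fell by 0.63, 1.18, 0.81, 1.20 and 0.87. Ifngr2 is not among the 14, since its adjusted p over all batches was 0.0533 in limma.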

How the data were processed

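RNA of 12 samples was measured on Affymetrix arrays; per the labels, 1 µg of total RNA was labelled by the 2-cycle protocol. MAS5 and Partek 6.4 are the tools given in the submitters' processing notes. The authors deposited natural log values, which were taken as ln(MAS5 signal + 20) from the numbers themselves: below a signal of 200, 100% were multiples of 0.1 (tolerance 0.005), and each array's mean, trimmed by 2% at each end, was 500.003 to 500.004. The plan had assumed linear or log2 values. They were converted to log2(signal + 20) with no further normalization. Array medians were 59.3 to 89.1 signal units, and the number of arrays limits the precision.

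Of 45101 probe sets, 64 controls were left out, and 31235 were tested, those at or above their array's 40th percentile on 3 or more arrays. Of the 34945 with 1 gene symbol, 34741 matched RefSeq; 932 had several symbols and 9160 none. All 4 genotypes were fitted with limma 3.58.1 in R 4.3.3 (lmFit, eBayes with trend), without batch, with Benjamini-Hochberg adjustment over all tested probe sets. Batch was tested with genotype in the model. The steps were tested on simulated data. Replicate numbers equal labelled batches, and they pair the samples: after removing genotype means, same-number arrays correlated at 0.325 to 0.664 (18 pairs), other arrays at -0.531 to -0.0204 (36 pairs).

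The members and lists were chosen with earlier results of these data known. Values on every array are given, by rule, for members past the threshold in a genotype contrast (none), the 3 of highest signal in each class, those of smallest p (with the replicate block) by batch and by either genotype in each direction, and Irf7, Ifit1, Mx1, Bst2, Irf1, Gbp2, Iigp1 and Cxcl10; others with such values (Ifit3, Dhx58, Rsad2, Irgm1, Gbp3) were chosen after their values were seen. Alternatives were another offset, no filter, a stricter filter, quantile normalization, the mean of all probe sets of a gene, the replicate block and leaving out arrays or a batch.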

Additional observations from a re-analysis of the deposited data

Results flagged for a closer look

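Each batch holds 4 arrays, and 69 sets of 4 values were checked for an array far from the other 3 (60 of single genes, 9 of list means). The distance is judged against the range of the 4 values, so a small difference can be flagged. Chance flags about 1 in 20 such sets, and 5 were found. The type I mean of the Ebi3-/- array of batch 3 was 0.81 (log2, relative to the 12-array mean), above the other arrays of that batch. Trim25 was high in Ebi3-/- of batch 2, at 13.04 on the scale log2(signal + 20). Igtp was flagged in wild type of batch 3, at 13.66, though its signal of 12956 was close to the 12318.5 to 12420.4 of the other arrays. Irf7 was high in Il10-/- of batch 2, at 9.99, and low in wild type of batch 3, at 10.66. The cause was not tested.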

How the results depend on the processing

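With the replicate block, 0 members were called in every genotype comparison, and the block changed no call. Over all alternatives except those that only left out 1 array, 7 list medians or counts moved and 377 did not. A median counted as moved when it shifted by more than 1 SD of the values within batches (for batch differences, within genotypes), and a count when it changed over 1.5 times, so that medians near 0 could turn sign without being counted. Of the single genes 322 kept their direction and 2 reversed.

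Leaving out batch 3, chosen after seeing the data, gave 14 members called for batch, against 24.7% of all probe sets. For batch 2 against batch 1, the mean of all probe sets of a gene gave 3 members called higher, 1 of them type I, with medians of -0.29 over all members and -0.48 over type I targets, and quantile normalization gave 2 type I targets called higher. Without wild-type replicate 1 and with the replicate block, chosen after seeing the data, the interferon gamma median of the interaction was -0.14. With the mean of all probe sets, Pias1 reversed to -0.0377 by average Il10 genotype and to -0.0031 in the double knockout against wild type. Cxcl9 in Il10-/- against wild type reversed to -0.05 without wild-type replicate 1 and to -0.19 without Il10-/- replicate 3, within a range of -0.19 to 1.56. The cause was not tested.

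Leaving out 1 array at a time gave these ranges. The average Il10 median was -0.20 to 0.14 over all members and -0.25 to 0.0812 over type I targets. For the double knockout against Ebi3-/- it was -0.36 to 0.31 over all members, -0.37 to 0.32 over type I and -0.14 to 0.29 over interferon gamma targets, and the interferon gamma median of the interaction was -0.24 to 0.28 and its type I median -0.20 to 0.47. The sign also turned for the type I median of Ebi3-/- against wild type (-0.59 to 0.07), of the average Ebi3 difference (-0.26 to 0.04) and of the double knockout against Il10-/- (-0.24 to 0.17), and for the interferon gamma median of the double knockout against wild type (-0.40 to 0.11). Members called higher numbered 4 to 8 in batch 2 against batch 1 (type I 1 to 4), 10 to 21 in batch 3 against batch 1 (type I 7 to 16, interferon gamma 3 to 5) and 12 to 22 in batch 3 against batch 2 (type I 9 to 17, interferon gamma 3 to 5). Batch was called for 20 to 29 members.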
